A study of Mus musculus with 6 samples.

Results

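The subject here is the RGS family of regulators of G protein signalling in splenic CD8 T cells of mice, taken by flow sorting for CD45, CD3 and CD8a. There are 3 control libraries and 3 labelled fus irradiation, here called ultrasound 1, 2 and 3 (focused ultrasound is sound brought to a point inside the body). The members are 8 genes taken by symbol from the deposited table of 17744 genes: Rgs1, Rgs2, Rgs3, Rgs10, Rgs14, Rgs16, Rgs18 and Rgs19. They were selected on the family name and on the ultrasound-against-control FPKM values of this table, which were already known. Their differences between the groups are therefore given as a description, with no p-value. How many of them lie past the threshold of the fit over all genes is part of that description and supports nothing. The control libraries carry the genotype label wt, and the ultrasound libraries repeat the treatment in that field. Strain, age, dose, interval after treatment and whether animals were pooled are not given in the sources used here. Nothing says that the libraries come from separate animals, so their spread may be technical.

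RGS proteins act as brakes on G protein-coupled receptors. A receptor loads its G alpha subunit with GTP, and an RGS protein binds that subunit and speeds GTP hydrolysis, which ends the signal. In lymphocytes the best studied receptors under this control are chemokine and sphingosine phosphate receptors, which couple to Gi and guide migration. T cells switch several RGS genes on and off with activation. By sequence family, Rgs1, Rgs2, Rgs3, Rgs16 and Rgs18 belong to the R4 subfamily of small RGS proteins, Rgs10 and Rgs14 to R12, and Rgs19 to RZ.

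The libraries hold 35024080 to 38113103 reads assigned to listed genes, recovered from the deposited values. Ultrasound 1 differed from ultrasound 2 and ultrasound 3. Leaving out ultrasound 1 raised the number of genes with a limma adjusted p under 0.05 from 864 to 5727 of 10655. This does not place ultrasound 1 with the controls. The sorted cells' markers were high in every library, with Cd8a at 251 to 314 and Cd3e at 165 to 310 FPKM (fragments scaled to gene length and to sequencing depth). They were not steady. Ptprc, the CD45 gene, stood at 471, 485 and 417 FPKM in controls and at 431, 330 and 300 in ultrasound 1, 2 and 3. Cd3e stood at 191 to 209 FPKM in controls and at 165, 310 and 288 in ultrasound 1, 2 and 3. Marker sums of monocytes and macrophages, neutrophils and platelets were higher in every ultrasound library. Those of B cells, NK cells, dendritic cells, CD4 T cells and erythroid cells overlapped between the groups. The dendritic cell sum was 21.1 to 42.6 FPKM in controls and 23.6 to 76.4 in ultrasound libraries, and the erythroid sum 83.2 to 133 and 55.3 to 112. The 12 monocyte and macrophage markers summed to 384 to 842 FPKM in controls and 2015 to 3413 in ultrasound libraries, and the 10 neutrophil markers to 187 to 575 and 642 to 2319. By limma 6 of the 12 and 3 of the 10 passed an adjusted p of 0.05, all higher. The share of all genes tested that passed on that side was 6.55%. Among the 3, Cxcr2 reached 1 FPKM in 3 libraries, as testing required, only with the help of its ultrasound values. These counts are therefore a description. The neutrophil marker S100a8 overlapped between the groups. It stood at 186, 50.5 and 60.1 FPKM in controls and at 725, 106 and 106 in ultrasound 1, 2 and 3. None of the 12 or 10 was at 0 in any library. The 10 B cell markers summed to 237 to 360 FPKM in controls, 176 in ultrasound 1, 977 in ultrasound 2 and 847 in ultrasound 3. The 9 T cell markers listed summed to 2427 to 2562 FPKM in controls and 2061 to 2694 in ultrasound libraries. By limma 1 of them, the costimulatory receptor gene Cd28, passed, lower by a log2 difference of -1.41. The 7 NK cell markers summed to 63.7 to 73.3 FPKM in controls and 54.4, 251 and 142 in ultrasound 1, 2 and 3, and 1 of the 6 tested, Klrb1c, passed, higher by 1.70. Both genes were named after their values were seen. In such bulk libraries, fewer cells of a type and less RNA per cell cannot be told apart.

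Of the 8 genes, Rgs16, Rgs1, Rgs2 and Rgs10 had all 3 ultrasound values below all 3 control values, Rgs18 and Rgs19 had them all above, and Rgs3 and Rgs14 overlapped between the groups. Over all 10655 genes tested, 34.8% did not overlap, 8.96% on the lower side and 25.9% on the higher side. All 8 passed the filter of 1 FPKM in at least 3 libraries, Rgs18 only with the help of its higher ultrasound values. In the limma fit over all genes, 2 of the 8 (Rgs16 and Rgs2) lay past the threshold of an adjusted p under 0.05, both lower, beside 8.11% of all genes tested in either direction and 1.56% on the lower side. The genes were chosen on the values that this fit uses, so these counts are no test of them and nothing is read from them. The count was 7 without ultrasound 1, when only Rgs3 lay short of it, 1 (Rgs16) without control 1, and 0 without control 2, control 3, ultrasound 2 or ultrasound 3. With a term that sets ultrasound 1 alone against the controls it was 2, Rgs16 and Rgs10.

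**Figure D1:**
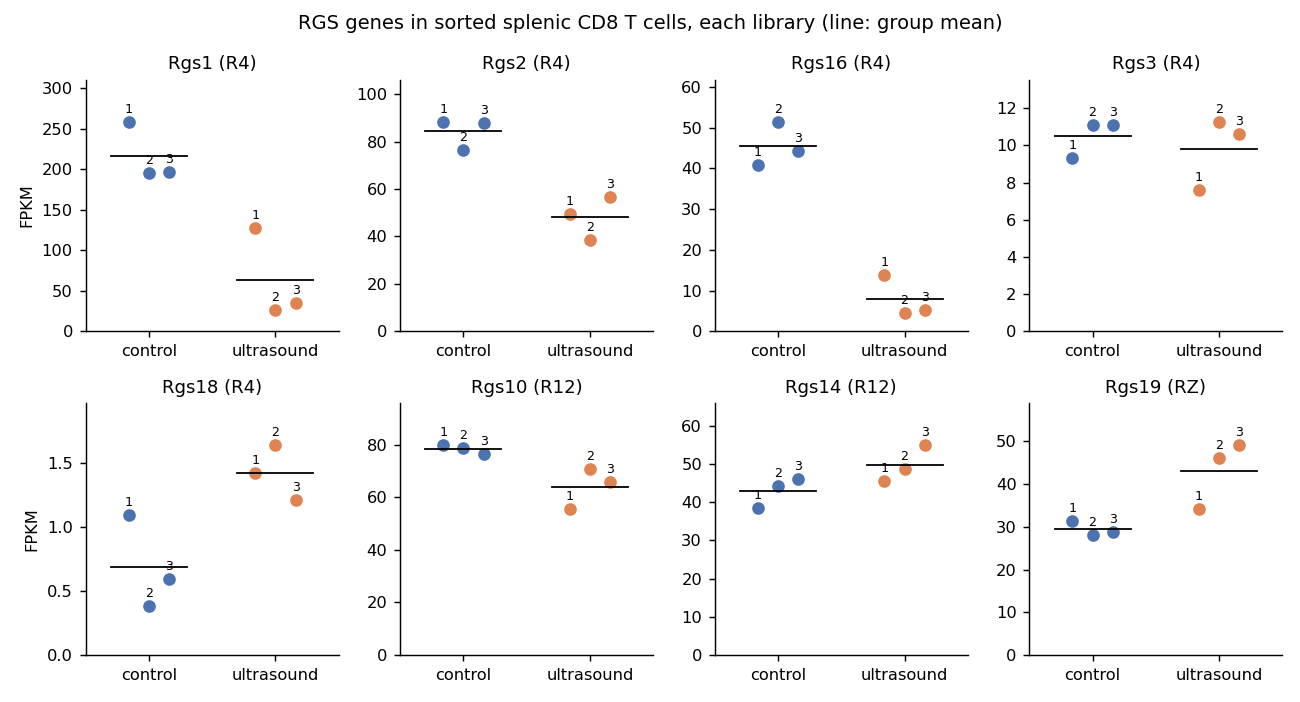
FPKM of the 8 RGS genes in each library (points, numbered by replicate), with controls in blue, ultrasound libraries in orange and black lines for group means; each panel has its own axis from 0. Rgs1 and Rgs16 separate the groups most, with ultrasound 1 between the controls and ultrasound 2 and 3, while Rgs3 and Rgs14 overlap.

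Rgs16 (NCBI Gene 19734), a regulator that acts on Gi and Gq and is induced by T cell receptor and cytokine signals, stood at 40.8, 51.5 and 44.3 FPKM in controls. In ultrasound 1, 2 and 3 it stood at 13.9, 4.47 and 5.21 FPKM. Every ultrasound library lay below every control, and ultrasound 2 and 3 lay below ultrasound 1. Against the control mean of 45.5 ± 5.48 FPKM (SD, n = 3), these levels were 30.6%, 9.81% and 11.5%. The group difference was -2.54 ± 0.36 (SE) on the log2(FPKM + 1) scale, and 8 of the 10655 genes tested, itself included, had a difference at least as low. The values rest on 3359 to 4212 reads in controls and 391 to 1144 in ultrasound libraries.

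Rgs1 (NCBI Gene 50778), an activation-induced brake on chemokine receptors in lymphocytes, was the highest of the 8 in controls at 259, 196 and 197 FPKM. It stood at 128 FPKM in ultrasound 1, 26.7 in ultrasound 2 and 34.5 in ultrasound 3. The groups did not overlap, but the ultrasound libraries differed among themselves more than those of any other member, with a coefficient of variation of 89.3% against 16.7% in controls. Relative to the control mean of 217 ± 36.3 FPKM (SD, n = 3), the 3 ultrasound libraries kept 58.9%, 12.3% and 15.9%. The group difference was -2.11 ± 0.54 (SE) on the log2(FPKM + 1) scale, and in ultrasound 1 alone it was -0.75. Rgs1 is also expressed in B cells, whose markers were low in ultrasound 1 and high in ultrasound 2 and 3. The part of other cells in the Rgs1 values was not tested.

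Rgs2 (NCBI Gene 19735), which prefers Gq, stood at 88.4, 76.6 and 88.0 FPKM in controls and at 49.5, 38.3 and 56.7 in ultrasound 1, 2 and 3. Again no ultrasound library reached the lowest control. Unlike Rgs1 and Rgs16, it placed ultrasound 1 between ultrasound 2 and ultrasound 3, at 58.7%, 45.4% and 67.2% of the control mean of 84.3 ± 6.69 FPKM (SD, n = 3) in ultrasound 1, 2 and 3. The group difference was -0.81 ± 0.15 (SE) on the log2(FPKM + 1) scale. In ultrasound 1, Rgs1 and Rgs2 were lower than the control mean by a like amount (-0.75 for both), whereas in ultrasound 2 they differed (-2.96 and -1.11).

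**Figure D2:**
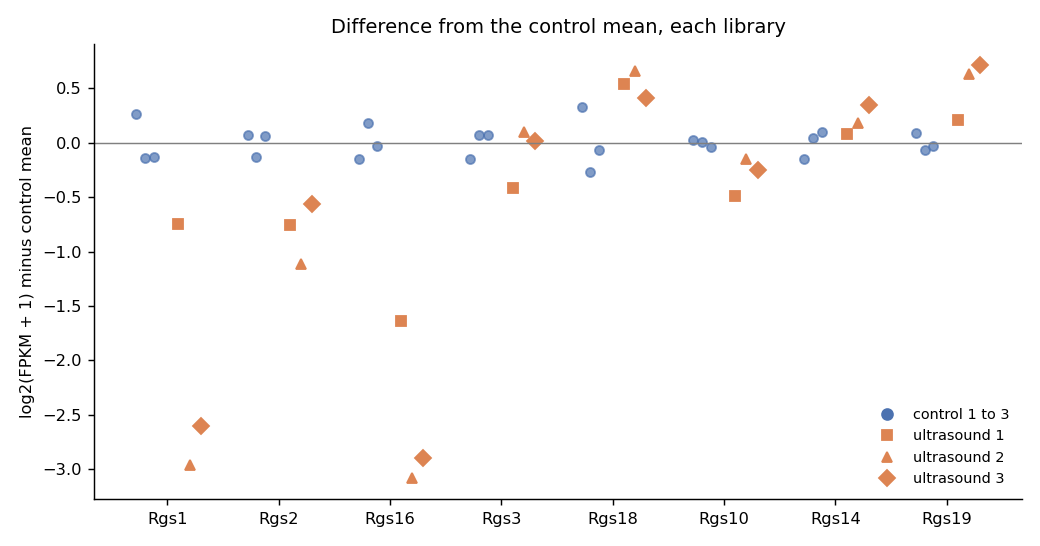
Level of each RGS gene as log2(FPKM + 1) minus its control mean, for controls (blue circles) and ultrasound 1 (squares), 2 (triangles) and 3 (diamonds). Rgs1 at -2.96 and -2.60 and Rgs16 at -3.08 and -2.90 are lowest in ultrasound 2 and 3, and Rgs2 has its lowest value, -1.11, in ultrasound 2.

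The windows around the annotated start sites of Rgs16 and Rgs2, the members with a window whose ultrasound levels were lowest relative to controls, are shown with 1 of the 3 windows of Rgs19, the member with a window whose levels were highest relative to controls, so that the sequence next to each start can be compared. They are RefSeq sequences of build GRCm38.p6, 250 bases before and 50 after the start, printed 5′ to 3′ along the gene. The table held 8 windows for 5 of the 8 genes, and Rgs1, Rgs14 and Rgs18 had none. Capitals mark matches on either strand to 8 motifs: the cAMP response element TGACGTCA, its core TGACG (which the full element contains), AP-1 (TGANTCA), EGR (GCGNGGGCG), the CCAAT box (CCAAT), the TATA box (TATAAA), and kappa B and CArG by name.
Rgs16, chr1:153740103-153740402, plus strand: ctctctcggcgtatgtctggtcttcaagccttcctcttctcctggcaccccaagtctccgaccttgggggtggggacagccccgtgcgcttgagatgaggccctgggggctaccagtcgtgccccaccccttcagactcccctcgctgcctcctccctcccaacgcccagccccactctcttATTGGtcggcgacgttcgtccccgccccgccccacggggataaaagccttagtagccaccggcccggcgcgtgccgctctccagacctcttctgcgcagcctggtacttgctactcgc
Rgs2, chr1:144004100-144004399, minus strand: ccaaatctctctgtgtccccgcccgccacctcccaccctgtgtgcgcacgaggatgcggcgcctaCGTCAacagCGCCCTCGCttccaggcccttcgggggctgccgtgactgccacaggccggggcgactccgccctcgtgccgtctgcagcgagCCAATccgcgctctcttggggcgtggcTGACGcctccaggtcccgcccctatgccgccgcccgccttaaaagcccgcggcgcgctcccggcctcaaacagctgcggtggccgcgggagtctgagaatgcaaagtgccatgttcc
Rgs19, chr2:181693928-181694227, minus strand: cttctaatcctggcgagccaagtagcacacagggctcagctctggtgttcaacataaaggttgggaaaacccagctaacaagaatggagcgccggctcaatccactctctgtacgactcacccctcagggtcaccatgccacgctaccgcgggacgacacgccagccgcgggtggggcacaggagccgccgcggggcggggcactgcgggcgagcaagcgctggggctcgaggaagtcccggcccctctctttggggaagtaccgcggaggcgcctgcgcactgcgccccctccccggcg

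The Rgs2 window held 2 cores of the cAMP response element, beginning at -185 and -67 from the start, a CCAAT box at -94 and an EGR match at -176. The Rgs16 window held a CCAAT box at -68 on the opposite strand and no other match. The Rgs19 window shown held none of the 8 motifs, but another of its windows (chr2:181693761-181694060) held an EGR match at -98, and the third held none. Of 32851 windows of this length in the table, 20.8% held the core, 37.4% a CCAAT box, 5.55% the EGR motif, 1.79% the full cAMP response element, 7.81% AP-1, 13.6% the TATA box, 8.46% kappa B and 1.63% CArG. A match is a run of letters in this window and was not tied to any factor here.

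Rgs3 (NCBI Gene 50780), which acts on Gi and Gq and limits chemokine-driven migration, showed no separation of the groups. It stood at 9.33, 11.1 and 11.1 FPKM in controls and at 7.59, 11.3 and 10.6 in ultrasound 1, 2 and 3. Only ultrasound 1 lay below the controls, and the group difference of -0.10 ± 0.16 (SE, log2(FPKM + 1) scale) was smaller than its error. It became 0.057 without ultrasound 1, -0.22 with median-of-ratios size factors, -0.19 with upper-quartile factors and -0.24 with voom. Its low FPKM belies its reads, which numbered 3158 to 4998 per library, as many as those of genes with several times its level, because the length behind its FPKM is 11821 bases against 1350 for Rgs1. Rgs3 has long and short isoforms, which the deposited values do not separate.

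Rgs18 (NCBI Gene 64214), best known from platelets and other myeloid-lineage cells, was the lowest of the 8. It stood at 1.09, 0.381 and 0.588 FPKM in controls and at 1.42, 1.63 and 1.21 in ultrasound 1, 2 and 3. Control 1 lay just below the lowest ultrasound library. The difference was 0.54 ± 0.17 (SE) on the log2(FPKM + 1) scale, which understates low genes, and 1.04 with a pseudocount of 0.1. Only 27 to 78 reads in controls and 93 to 124 in ultrasound libraries stand behind it. Control 1 was also the control with the highest Lyz2, a myeloid lysozyme gene, and Pf4, a platelet chemokine gene, with Lyz2 at 499 FPKM against 209 and 207 in controls 2 and 3 and Pf4 at 1.59 against 0.0486 and 0.289. In ultrasound 1, 2 and 3 Lyz2 stood at 1430, 1513 and 2721 FPKM, above every control. Pf4 stood there at 2.32, 1.09 and 0.223 FPKM and overlapped the controls, as did the platelet gene Ppbp. The 7 platelet and megakaryocyte markers summed to 5.07 to 6.03 FPKM in controls and 8.46 to 11.5 in ultrasound libraries. The part of these cells in Rgs18 was not tested.

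Rgs10 (NCBI Gene 67865), a small Gi-directed RGS protein with little outside its RGS domain, had the tightest controls, at 79.7, 78.8 and 76.5 FPKM, a coefficient of variation of 2.12%. The ultrasound libraries stood at 55.5, 70.8 and 65.7 FPKM. They lay below all controls, and here ultrasound 1 was the lowest. The difference was -0.30 ± 0.11 (SE) on the log2(FPKM + 1) scale, against -0.49 for ultrasound 1 alone. Rgs14 (NCBI Gene 51791), which joins an RGS domain to a Rap-binding region and a GoLoco motif that holds Gi in its GDP-bound form, stood at 38.5, 44.3 and 46.0 FPKM in controls and 45.4, 48.8 and 54.9 in ultrasound libraries. Ultrasound 1 lay inside the control range and the others above it. The difference for Rgs14 was 0.21 ± 0.11 (SE, log2(FPKM + 1) scale), but 0.083 with median-of-ratios size factors, 0.11 with upper-quartile factors, 0.085 with voom and 0.086 in the authors' deposited table.

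Rgs19 (NCBI Gene 56470), also called GAIP, a membrane-anchored regulator of Gi-family subunits, stood at 31.4, 28.2 and 28.8 FPKM in controls. It stood at 34.1 FPKM in ultrasound 1, 46.1 in ultrasound 2 and 49.1 in ultrasound 3. All ultrasound libraries lay above all controls, ultrasound 1 by the smallest margin. Against the control mean of 29.5 ± 1.73 FPKM (SD, n = 3) these were 116%, 156% and 167%, and the group difference was 0.52 ± 0.15 (SE, log2(FPKM + 1) scale). A difference at least as high was found for 1231 of the 10655 genes tested. The sums of monocyte and macrophage markers given above were also higher in every ultrasound library, and their part in Rgs19 was not tested.

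The median log2 difference over all genes tested was 0.087, and -0.023 after scaling by median-of-ratios size factors, a shift of -0.11. Relative to the median of all genes, the differences of the small movers were 0.43 for Rgs19, 0.12 for Rgs14, -0.19 for Rgs3 and -0.38 for Rgs10. None of the 8 changed direction under median-of-ratios factors, upper-quartile factors or voom on recovered reads. The median over the 8 genes was -0.20. In the authors' deposited table the log2 fold changes of Rgs16, Rgs1 and Rgs2 are -2.65, -1.90 and -0.93.

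**Figure D3:**
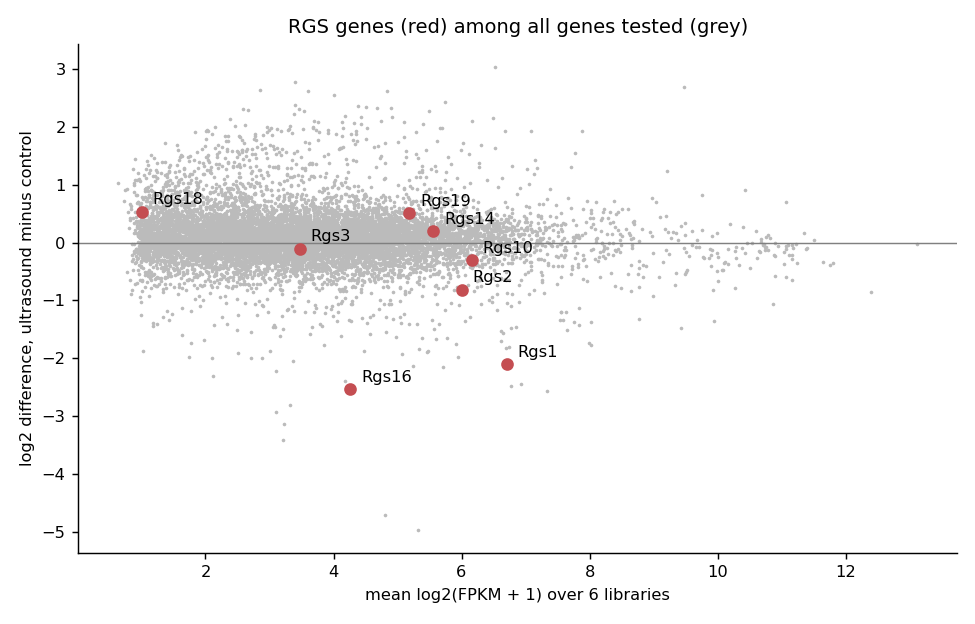
Log2 difference, ultrasound minus control, against the mean log2(FPKM + 1) over 6 libraries, for all 10655 genes tested (grey) and the 8 RGS genes (red). Rgs16 at -2.54 and Rgs1 at -2.11 lie at the lower edge of the cloud, and Rgs3, Rgs10, Rgs14, Rgs18 and Rgs19 lie within it.

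FPKM is a level per length, so the 8 genes can be ordered, but the order rests on the authors' gene lengths. For Rgs1 the length behind the FPKM is 1350 bases against 6947 in the merged exons of GENCODE M21, and for Rgs14 2443 against 4239, so a longer length would lower the place of Rgs1 and of Rgs14. For the other 6 the lengths lay closer, such as 2335 and 2339 bases for Rgs16. In controls Rgs1 came first at 217 FPKM, above Rgs2 at 84.3 and Rgs10 at 78.4, whose ranges overlapped. Rgs16 at 45.5 and Rgs14 at 42.9 also overlapped, followed by Rgs19 at 29.5, Rgs3 at 10.5 and Rgs18 at 0.687 FPKM, each clear of its neighbour. In ultrasound 2 and 3 the order began with Rgs10 at a mean of 68.2 FPKM, followed by Rgs14 at 51.8, Rgs19 at 47.6 and Rgs2 at 47.5, with overlap between Rgs14 and Rgs19 and between Rgs19 and Rgs2. Rgs1 followed at 30.6 FPKM, and Rgs16 at 4.84 lay below Rgs3 at 10.9. Ultrasound 1 kept Rgs1 in first place, with Rgs16 at 13.9 FPKM still above Rgs3 at 7.59.

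Summed over the 8 genes, the level was 548, 486 and 492 FPKM in controls and 335, 248 and 278 in ultrasound 1, 2 and 3. Without Rgs1 the sums were 289, 291 and 295 FPKM in controls and 207, 221 and 243 in ultrasound libraries. These sums still hold Rgs16, Rgs2 and Rgs10, each lower in every ultrasound library, and the 8 genes were chosen on these values. The sums are therefore a description and say nothing of the family as a whole. The R4 genes held 68.9% to 72.7% of the sum in controls, 59.7% in ultrasound 1, 33.2% in ultrasound 2 and 38.9% in ultrasound 3. The R12 pair held 21.6% to 25.3% in controls and 30.1%, 48.2% and 43.4% in ultrasound 1, 2 and 3. Rgs19, the RZ member, went from 5.73% to 5.86% in controls to 10.2%, 18.6% and 17.7%. These shares rest on the same gene lengths, and a lower share of Rgs1 raises the others.

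**Figure D4:**
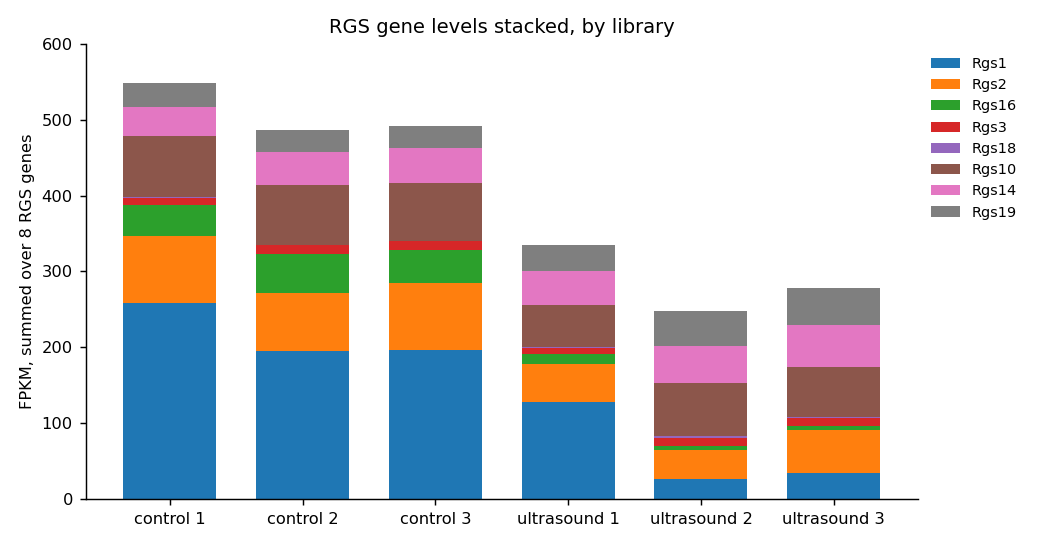
FPKM of the 8 RGS genes stacked for each library, from Rgs1 at the base to Rgs19 at the top; the bar height is their sum. The sum is 486 or more in controls and 335 or less in ultrasound libraries, and the Rgs1 segment shrinks from 259, 196 and 197 to 128, 26.7 and 34.5 FPKM.

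Several members share a chromosome, and their neighbours did not all move with them. In RefSeq's annotation of GRCm38.p6, the build the submitters' notes name as mm10, Rgs2 (chr1:143999338-144004149), Rgs13 (chr1:144137386-144177372), Rgs1 (chr1:144244669-144249104), Rgs21 and Rgs18 (chr1:144752683-144775427) lie within 776 kb of chromosome 1. Rgs16 (chr1:153740353-153745468) lies elsewhere on it, between Rgs8, 42.7 kb away, and Rgsl1, 32.5 kb away. In the first cluster Rgs2 and Rgs1 were lower in every ultrasound library and Rgs18 higher. Rgs13, a germinal centre B cell gene between Rgs2 and Rgs1, stayed under 1 FPKM, with 0.287, 0.366 and 0.449 in controls and 0.0862, 0.765 and 0.301 in ultrasound 1, 2 and 3. Rgs8 and Rgsl1, the neighbours of Rgs16, did not exceed 0.115 and 0.0265 FPKM in any library. Rgs21 was not analysed here.

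For each member the 3 genes with the closest profile were found by the root mean square difference of centred log2(FPKM + 1) values over the 6 libraries, among 7523 genes with a mean of at least 5 FPKM. This is a description, since 6 libraries in 2 groups give many genes a like shape. Closest to Rgs16 were Irs2 (0.16), Nr4a2 (0.23) and Dnajb9 (0.28), where the Rgs16 profile itself spreads by 1.35. Irs2 is an insulin receptor substrate, Nr4a2 an orphan nuclear receptor induced by T cell receptor signals and Dnajb9 a chaperone of the endoplasmic reticulum. Irs2 stood at 38.7, 43.1 and 39.8 FPKM in controls and 16.8, 4.06 and 4.40 in ultrasound 1, 2 and 3, close to Rgs16 in every library. Closest to Rgs1 were Dnajb9 (0.20), the transcription factor gene Klf6 (0.25) and Cd69 (0.25), whose product holds S1P receptor 1 inside the cell, against a spread of 1.26. Closest to Rgs2 were Irf1 (0.14), Ier5 (0.16) and Zfp36 (0.16), against 0.44. The first 2 of these are an interferon-regulated transcription factor and an immediate early gene, and Zfp36 encodes an mRNA decay factor. Rgs19 was closest to Carhsp1 (0.024), Bin3 (0.029) and AI413582 (0.029), against a spread of 0.31. Rgs10 was closest to Ppp1r16b, Ifi27 and Lax1, Rgs14 to Tor2a, Ciz1 and Stk38, and Rgs3 to Spice1, Cd6 and Traf1. Rgs18 was closest to Evi2a, Pts and Bcl2a1d, the last of which shares sequence with near-identical copies.

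Of 16 other RGS names looked up, 14 are in the table and 12 of these stayed below 1 FPKM in every library. Rgs11, of the R7 subfamily, was the highest of them. It stood at 6.95, 6.85 and 8.52 FPKM in controls and at 5.92, 7.08 and 6.96 in ultrasound libraries. Rgs12, of the R12 subfamily, stood at 1.04, 0.894 and 0.810 FPKM in controls and at 0.750, 1.43 and 1.15 in ultrasound libraries. Both overlapped between groups and neither passed the limma test (adjusted p 0.439 and 0.549). Rgs12 met the filter of 1 FPKM only with the help of ultrasound 2 and 3, so its adjusted p is a description. The other 12 ranged from 0 to 0.765 FPKM.

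The rest of the G protein pathway was read from lists of 151 names, of which 142 are in the table and 101 were tested. By limma 17 passed an adjusted p of 0.05, 14 higher and 3 lower in ultrasound libraries, which is 16.8% of those tested beside 8.11% of all genes, 6.55% of them on the higher side. The lists were written with some results of these data known. Among the 17, Ptgir, Cxcr2 and Pik3r6 met the filter only with the help of their higher ultrasound values. The count and its share are therefore a description and support nothing. The median log2 difference over the 101 was 0.18. With median-of-ratios size factors 12 passed, 8 higher and 4 lower, and with voom 15, 9 higher and 6 lower. The sums of monocyte, macrophage and neutrophil markers given above were higher in every ultrasound library, and control 1 had the highest of the controls. Their part in the calls of every list below was not tested. The count was 62 without ultrasound 1, 12 without control 1, and 0 without control 2, control 3, ultrasound 2 or ultrasound 3. With ultrasound 1 alone against the controls it was 3.

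Receptors made up 29 (Gi-coupled) and 10 (Gs-coupled) of the 101 genes tested, so their number of calls partly follows the size of their lists. The counts of each list below are descriptions. Over all genes tested, 6.55% passed on the higher side and 1.56% on the lower. Of 29 Gi-coupled receptors tested, 6 passed on the higher side and 2 on the lower. S1pr1, the receptor for sphingosine phosphate that lets T cells leave lymphoid organs, fell. It stood at 154, 154 and 158 FPKM in controls and at 119, 111 and 101 in ultrasound 1, 2 and 3 (log2 difference -0.50 ± 0.09 SE, limma adjusted p 0.0320). Gpr183, a receptor for oxysterols named here after its values were seen, also fell (-0.66). Ccr7, the homing receptor with the highest level of the list, stood at 211, 168 and 177 FPKM in controls and at 140, 148 and 143 in ultrasound libraries, without overlap, and did not pass (limma adjusted p 0.0877). Among the 6 that passed on the higher side, the 4 largest differences were in Ltb4r1, Cxcr2, Fpr2 and Ccr2, receptors of leukotriene B4, chemokines and formyl peptides that neutrophils and monocytes carry. Cx3cr1 had a larger difference (2.02) and did not pass. Cxcr2 stood at 3.51, 0.951 and 1.25 FPKM in controls and at 7.90, 8.13 and 8.62 in ultrasound libraries (log2 difference 1.77 ± 0.30 SE, limma adjusted p 0.0311). With 1 control under 1 FPKM, Cxcr2 met the filter only with the help of its higher ultrasound values, so its call is a description. Cxcr2 and Ccr2 are also markers in the neutrophil and the monocyte lists.

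Of 10 Gs-coupled receptors tested, Ptgir, the prostacyclin receptor, passed. It stood at 0.595, 0.505 and 0.765 FPKM in controls and rose to 1.73, 2.54 and 4.41 in ultrasound 1, 2 and 3 (limma adjusted p 0.0381). Every control lay under 1 FPKM, so Ptgir met the filter only through its higher ultrasound values. Its adjusted p is therefore given as a description and supports nothing. Gpr65, an acid-sensing receptor at 21.9 to 24.3 FPKM in controls and 26.9 to 32.9 in ultrasound libraries, did not overlap between the groups and did not pass (limma adjusted p 0.0941).

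Among G alpha subunits, the direct targets of RGS proteins, 2 of 8 tested passed, both higher. Gna15, a Gq-class subunit of blood cells, had a mean of 4.11 ± 0.236 FPKM in controls and rose to a mean of 8.17 ± 0.745 (SD, n = 3; by limma, adjusted p 0.0297). Gna12 rose likewise, with means of 9.54 ± 0.182 and 14.6 ± 1.69 FPKM (SD, n = 3; by limma, adjusted p 0.0333). Gnai2, the main Gi subunit of lymphocytes and by far the most abundant here, stood at 299, 283 and 273 FPKM in controls and at 315, 446 and 470 in ultrasound 1, 2 and 3. All ultrasound libraries lay above the controls, but it did not pass (limma adjusted p 0.0959). Of 7 G beta and gamma genes tested none passed by limma: Gnb1, at 67.1 to 72.4 FPKM in controls and 86.6 to 90.7 in ultrasound libraries, missed at 0.0518, and Gng5 at 0.766. Before adjustment 4 of the 7 had a limma p under 0.05, and voom on recovered reads called 0.

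Receptor kinases and arrestins shut off the receptor itself, as RGS proteins shut off the G protein. Of 6 tested, 2 passed, both higher. Arrb1, encoding beta-arrestin 1, stood at 7.54, 7.39 and 7.45 FPKM in controls and at 11.5, 14.3 and 17.3 in ultrasound libraries (limma adjusted p 0.0311). Grk5 had means of 1.06 ± 0.0767 and 3.41 ± 0.809 FPKM (SD, n = 3; by limma, adjusted p 0.0297). The abundant kinases Grk2, at 214 ± 11.1 and 237 ± 35.3 FPKM, and Grk6, at 149 ± 5.37 and 157 ± 6.99 (controls and ultrasound libraries, SD, n = 3 each), did not pass, and the small difference of Grk6 turned negative under median-of-ratios, upper-quartile and voom scaling.

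Of 15 other regulators of G proteins tested, Arhgef11, an exchange factor with an RGS-like domain, passed. Its means were 4.63 ± 0.283 in controls and 7.37 ± 0.767 FPKM after ultrasound (SD, n = 3; by limma, adjusted p 0.0335). Its relative Arhgef1, at 353 ± 45.4 and 324 ± 24.6 FPKM, was far more abundant and did not pass. Of 24 effectors, Pik3r6 and Plcb3 rose and Pde4b fell. Pde4b, a cAMP phosphodiesterase, had means of 7.63 ± 0.556 and 4.99 ± 0.386 FPKM (SD, n = 3; by limma, adjusted p 0.0340). Pik3r6, a regulatory subunit of PI3K gamma, stood at 1.90, 0.726 and 0.852 FPKM in controls and at a mean of 5.39 ± 1.52 (SD, n = 3) in ultrasound libraries, with control 1 the highest control, as for the myeloid marker sums. Pik3r6 met the filter of 1 FPKM in 3 libraries only with the help of its higher ultrasound values, so its call is a description. Plcb3, a phospholipase C activated by Gq, had means of 2.96 ± 0.200 and 6.08 ± 1.39 FPKM (Pik3r6 and Plcb3, limma adjusted p 0.0304 and 0.0325). The abundant effectors Rac2 and Dock2, which drive lymphocyte motility, did not pass (limma adjusted p 0.221 and 0.698), and Dock2 turned negative under median-of-ratios, upper-quartile and voom scaling.

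**Figure D5:**
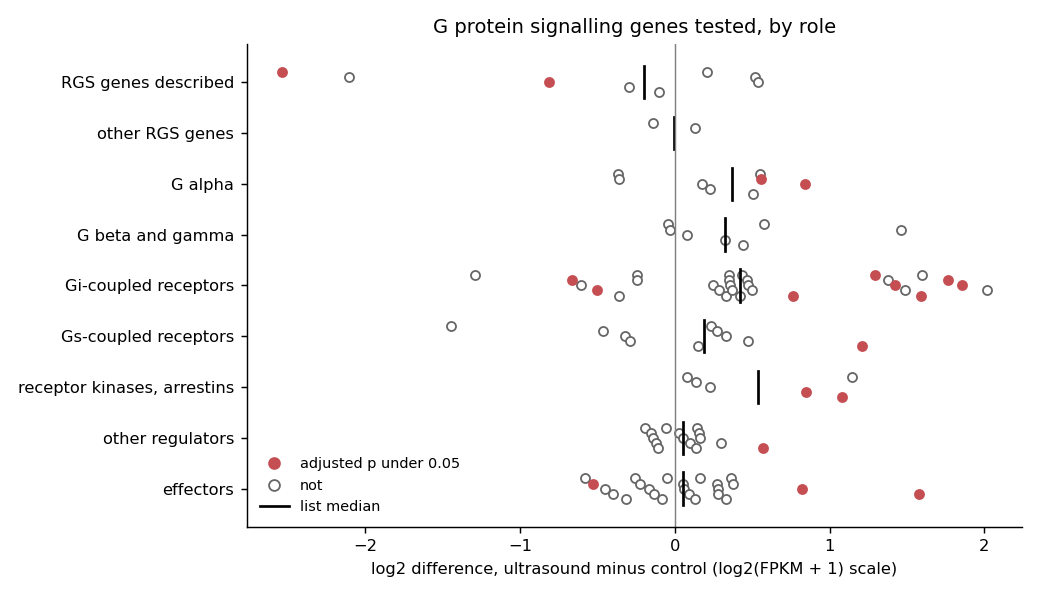
Log2 difference, ultrasound minus control, of each G protein signalling gene tested, by role, with red for a limma adjusted p under 0.05, open circles for the others and black lines for list medians. The receptor kinases and arrestins have the highest list median (0.54), and the 8 RGS genes the lowest (-0.20). The 8 RGS genes were chosen on these values, so nothing is read from their place.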

How the data were processed

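Per the submitters' processing notes, HISAT2, HTSeq, DESeq2, R 3.2.0 and the build mm10 were used; strand and annotation are not given in the sources used here. The sample labels name the V5 and the series text the V6 version of the library kit. The deposited table gives FPKM per library, per the file headers. Its signal columns are the authors' group means of DESeq2 normalized counts. Its fold ratio, its log2 fold change and its p-value and q-value columns come from the authors' comparison, per the file headers; the q-values served here only as an alternative. The filtered table, a subset, was not used.

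Whole reads were recovered from the linear relation between FPKM and the group means: of 42751 values below 200 reads, 100% lay within 0.05 of a whole number. Floors of 3 reads cover counting error only. Gene lengths are those implied by reads and FPKM, set beside merged exons of GENCODE M21.

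Limma 3.58.1 (trend, robust) in R 4.3.3 was fitted to log2(FPKM + 1) for the 10655 genes with at least 1 FPKM in 3 libraries; tests were two-sided and adjusted by Benjamini-Hochberg over all of them, with a threshold of 0.05. On simulated data with 200 changed genes and a dispersion of 0.05 it recovered 64.2% of 2-fold and 98.0% of 3-fold changes, with 9 false calls among 10545 genes. All simulated ultrasound libraries were drawn alike, whereas ultrasound 2 and 3 stood apart from ultrasound 1 here. These figures therefore do not describe the fit on these data. Python 3.11.15, numpy 2.4.6, pandas 2.3.3 and matplotlib 3.10.9 did the rest.

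The members, lists and tests were chosen with earlier results of these data known. Named are all members, the other RGS genes, up to 4 called genes with the largest change and the 2 most abundant of each list, and 3 closest profiles per member; others are marked, and 1 gene that the rule names is not reported here. Alternatives covered pseudocount, filters, scaling, the robust option, voom, the authors' values, a replicate block, a term for ultrasound 2 and 3, and each library left out.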

Additional observations from a re-analysis of the deposited data

Results flagged for a closer look

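Some RGS genes too low to be tested had more reads in an ultrasound library than in any control and more than the 3 reads that a count of 0 allows. These reads lie outside the main comparison. The rule looked only for higher ultrasound counts, so the list runs in 1 direction by design. Most of these reads were in ultrasound 2. There Rgs7bp, which encodes an anchor of the R7 subfamily of neurons, had 59 reads, against 2 or fewer in each control, and Rgs7 had 20 and Rgs4 27, against 0 in all controls. Rgs17 had 11 reads in ultrasound 2 and Rgs20, of the same RZ subfamily as Rgs19, 5 in ultrasound 2 and 4 in ultrasound 3, against 0 in all controls. Rgs7bp had 6 reads in ultrasound 3. Rgs8 had 30 reads in ultrasound 2 and 14 in ultrasound 1, against 5 to 12 in controls. Rgs13 had 85 reads in ultrasound 2, against 30 to 47 in controls, but 9 in ultrasound 1, below every control. Rgs5 had 9 reads in ultrasound 2 against 6 or fewer, and Rgs6 had 6 against 3 or fewer, and the part of counting error in such small differences was not tested. In the reverse direction, Rgs9 had 112 reads in control 2, 63 and 50 in controls 1 and 3, and 58 to 75 in ultrasound libraries. In ultrasound 1 Rgs4, Rgs7, Rgs17, Rgs20 and Rgs7bp had 0 reads. None of these levels exceeded 0.765 FPKM, and no test was made.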

How the results depend on the processing

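Of 127 alternative values for the log2 differences of the 8 RGS genes over 16 alternatives, 117 moved by less than the spread between replicates. A further 9 moved by more and 1 changed sign: Rgs3, which ranged from -0.20 to 0.057 as single libraries were left out. The filters, the robust option and the replicate block leave these differences unchanged by design, so part of the 117 could not move. The spread includes that among ultrasound libraries, 0.86 for Rgs1. Its -2.78 without ultrasound 1 therefore counted as a move smaller than the spread.

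The 864 genes called (698 higher, 166 lower) became 468 (281 and 187) with median-of-ratios size factors, 623 (431 and 192) with upper-quartile factors, 568 (318 and 250) with voom, 150 with a term for ultrasound 2 and 3 and 2179 in the authors' deposited table. The 17 pathway genes became 3 with that term and 43 in the authors' deposited table. Without a filter limma called 0 genes, 0 RGS members and 0 pathway genes; before adjustment, 4216, 6 and 53 had a p under 0.05. Leaving out 1 library gave from 0 to 5727 genes, from 0 to 7 RGS members and from 0 to 62 pathway genes; the 0 counts came without control 2, control 3, ultrasound 2 or ultrasound 3, where 1962 to 2154 genes had an unadjusted p under 0.05. The cause was not tested.

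The labels name no pairing of libraries that share a replicate number, and the main fit assumed none. Their deviations from the group means had correlations of -0.041, 0.051 and 0.058, and 1 of 3 numbers was its own best match. With 3 libraries per group, this check cannot show whether the libraries were paired. With the replicate block limma called 0 genes, 0 RGS members and 0 pathway genes; before adjustment, 3249, 6 and 45 had a p under 0.05.

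Of 221 values for the 14 named pathway genes that were called, 115 lost the adjusted p and 0 changed sign. Signs changed for genes not called. With the term for ultrasound 2 and 3 this held for Rgs12 (-0.13), Gnas (-0.17), Gng5 (0.11), Grk2 (-0.11), Rac2 (-0.083) and Dock2 (-0.068). Under median-of-ratios, upper-quartile, voom and the authors' deposited values it held for Grk6 (-0.048, -0.018, -0.048 and -0.049) and Dock2 (-0.066, -0.036, -0.066 and -0.066). For Gng5 leaving out single libraries gave -0.12 to 0.0092.

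Depth was 35024080 to 38113103 reads per library; Rgs18 rests on as few as 27 reads, the fewest of the 8.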
